A study of Mus musculus with 8 samples.

Results

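*Pde3b* encodes phosphodiesterase 3B, an enzyme that breaks down the second messenger cyclic AMP. It is 1 of the 875 genes in a table of RNA sequencing values from cultured fibroblasts of the mouse embryo (MEFs). The gene was chosen by its measured values, because it was near-silent in control cells and high in each of the 3 other lines. Its levels and differences are therefore given as a description, with no test.

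All 4 groups came from MEFs with a floxed *Eed* gene, and each group had 2 libraries. Control cells were the floxed parental cells. EZHIP cells stably expressed human *EZHIP*, a protein that inhibits Polycomb repressive complex 2 (PRC2), and K27M cells stably expressed histone H3.3 carrying the K27M substitution. Both were delivered by lentivirus, from a vector with an EF1a promoter and a puromycin resistance gene. EED-null cells were a single clone selected after a transient Cre lentivirus had been used to delete *Eed*, which encodes a core subunit of PRC2. Whether the control cells had received an empty vector is not given in the sources used here. The table does not list *Eed*, and its deletion was not checked.

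The authors had kept genes that differed at least 2-fold between EZHIP and control cells. The values are estimated reads divided by a size factor of the library, called normalized expression here, with no scaling for gene length. The listed genes held 306290 and 424561 estimated reads in the control libraries, 264279 and 269660 in the EZHIP libraries, 350472 and 400267 in the K27M libraries, and 209390 and 294073 in the EED-null libraries. Since only selected genes are listed, total depth is unknown. Nothing in the labels says that the replicates were separate cultures, so p-values measure only the spread between these samples, which may be technical. Bulk samples cannot tell fewer expressing cells from less RNA per cell.

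Cyclic AMP is made by adenylyl cyclases, which are stimulated through G protein-coupled receptors, and cyclic GMP is made by guanylyl cyclases. Phosphodiesterases end the signal by hydrolysing these nucleotides, and the PDE3 enzymes act on cyclic AMP in a way that cyclic GMP inhibits. PDE3B is best known from adipocytes, hepatocytes and pancreatic beta cells, and in adipocytes insulin activates it through PI3K and AKT, which limits lipolysis.

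In the mm9 build, *Pde3b* (ENSMUSG00000030671.8) lies on the plus strand of chromosome 7, from 121558795 to 121682765. The gene spans 123971 bp, and its main transcript has 16 exons and 6573 bases, of which 3300 are coding. A long noncoding RNA gene on the opposite strand, *4933406I18Rik*, has its annotated start 119 bases before that of *Pde3b*, so the annotated genes do not overlap.

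Normalized expression of *Pde3b* was 0 and 4.43 in the control libraries. It was 373 and 407 in the EZHIP libraries. It was 414 and 429 in the K27M libraries and 600 and 579 in the EED-null libraries. Both control libraries were near or at 0 and every library of the other lines was far above them, with no overlap. The lower control value came from 0 reads and the higher from 6 reads, while each library of the other lines held between 315 and 597 reads.

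**Figure D1:**
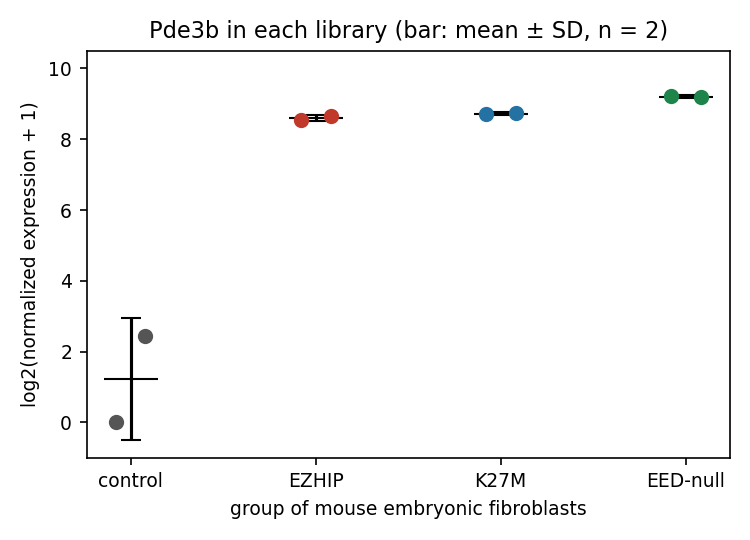
*Pde3b* in each of the 8 libraries, as log2(normalized expression + 1) by group, with points for libraries and bars for the mean ± SD (n = 2). The control libraries lie at 0 and 2.44, and the libraries of the other lines lie between 8.55 and 9.23.

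The group means rose in the order control, EZHIP, K27M and EED-null, at 2.21 ± 3.13, 390 ± 24.1, 421 ± 11 and 589 ± 15.4 (SD, n = 2 each). EZHIP and K27M cells differed by 31.6 between their means, less than the sum of their SDs of 35.2. Their libraries did not overlap (407 was the higher EZHIP and 414 the lower K27M value). With 2 libraries each, this does not show that the levels were equal. EED-null cells exceeded K27M cells by 168, more than the sum of the SDs of 26.4, and exceeded EZHIP cells by 199, against a sum of 39.5. These comparisons with the SDs describe the values by which the gene was chosen and test nothing. The EED-null mean was 1.51 times the EZHIP mean and 1.4 times the K27M mean.

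On the log2(value + 1) scale, which understates changes from low values, the difference from control was 7.39 with EZHIP, 7.50 with K27M and 7.98 in the EED-null clone. The 3 differences share the control libraries and are not independent. Their size rests on which control library is used. Without the control library at 0 they were 6.17, 6.28 and 6.76, and without the other control library they were 8.61, 8.72 and 9.21. Between lines, the log2 difference was 0.11 for K27M minus EZHIP, 0.60 for EED-null minus EZHIP and 0.48 for EED-null minus K27M. With the libraries rescaled to a common median ratio over the listed genes, K27M minus EZHIP changed sign to -0.03.

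The ratio to control was also computed from pooled reads, of which the control libraries held 6. It was 151 in EZHIP cells, with an exact Clopper-Pearson 95% interval from 69.2 to 414. In K27M cells it was 164 (74.9 to 447), and in EED-null cells it was 228 (104 to 623). These intervals cover counting error only. They overlap widely, and all share the same 6 control reads.

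To compare *Pde3b* with other genes, values were divided by the length of the longest annotated coding transcript, which was known for 842 listed genes. *Pde3b* had 0.337 ± 0.476 per kb in control cells, 59.3 ± 3.67 with EZHIP, 64.1 ± 1.68 with K27M and 89.7 ± 2.34 in the EED-null clone (SD, n = 2 each). In control cells 9.75% of the other listed genes had a lower mean per kb. That share was 67.1% with EZHIP, 61.4% with K27M and 73.7% in the EED-null clone. *Pde3b* stood near the bottom of the listed genes in control cells and above most of them in the other lines. It was chosen for this pattern, and the other genes were selected on EZHIP against control. Its position is therefore a description and no independent result.

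Among listed genes with a mean log2(value + 1) of at most 3 in control cells and a higher mean in EZHIP cells, there were 149, a class defined after the values were known. The difference between the lowest of the 3 lines and control had a median of 2.57 (log2) over this class, and that of *Pde3b* was 7.39, at rank 1. *Gata4*, a developmental transcription factor, followed with 7.22, and *Lrp2*, an endocytic receptor, with 6.66. The spread between the highest and lowest line had a median of 3.16 over the class, and that of *Pde3b* was 0.60, at rank 2 after *Hecw2* with 0.32. With group means taken before the logarithm, an alternative chosen after seeing the data, the class held 147 genes and the ranks were 2 for the rise and 4 for the spread. *Pde3b* was selected for this pattern, so its rank is no independent result.

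**Figure D2:**
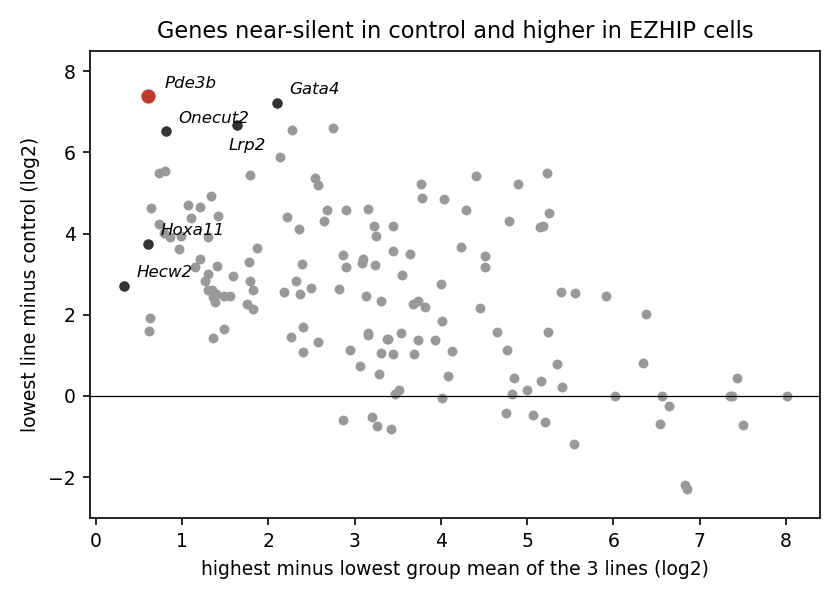
Genes near-silent in control cells and higher in EZHIP cells, 1 point per gene, with the spread among the 3 lines on the x axis and the lowest line minus control on the y axis (both log2). *Pde3b*, in red, lies at a spread of 0.60 and a difference of 7.39.

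The genes most like *Pde3b* were taken by the root-mean-square difference between profiles of log2(value + 1) over the 8 libraries, each centred on its own mean. The median difference over the 874 other genes was 3.25, and the 10 nearest genes lay between 0.76 and 1.10. In order they were *Zic2*, *Cxcl14*, *Lrp2*, *Chd7*, *Hoxb13*, *Hoxd13*, *Mmp3*, *Isl1*, *Vax2* and *St8sia4*. Zic2, Hoxb13, Hoxd13, Isl1 and Vax2 are developmental transcription factors, CHD7 is a chromatin remodeler, CXCL14 a chemokine, MMP3 a matrix metalloproteinase and ST8SIA4 a polysialyltransferase.

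*Zic2* had 0 and 0.738 in control libraries, 228 and 254 with EZHIP, 122 and 123 with K27M and 587 and 604 in the EED-null clone. *Cxcl14* had 10.3 and 12.5 in control libraries, 927 and 947 with EZHIP, 1050 and 1180 with K27M and 3715 and 3751 in the EED-null clone. *Chd7* had 2.05 and 2.95 in control libraries, 136 and 187 with EZHIP, 248 and 313 with K27M and 250 and 302 in the EED-null clone. For *Lrp2* the control libraries had 0.738 and 1.03 and the EZHIP libraries 172 and 208. Its K27M libraries had 524 and 664, above the 313 and 320 of the EED-null clone. Each of these genes was low in both control libraries and higher in all others, which follows from their choice by likeness to *Pde3b*. Only the *Chd7* libraries overlapped between K27M and EED-null cells. *Hoxd13*, *Mmp3*, *Isl1*, *Vax2* and *St8sia4* were listed at 0 in both control libraries.

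The choice of nearest genes depended on the measure. With a pseudocount of 5 in place of 1, 7 of the 10 genes were again among the nearest 10. With a pseudocount of 0.1 there were 3, and with Pearson's r over the 8 libraries 2 were, *Chd7* and *Zic2*.

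**Figure D3:**
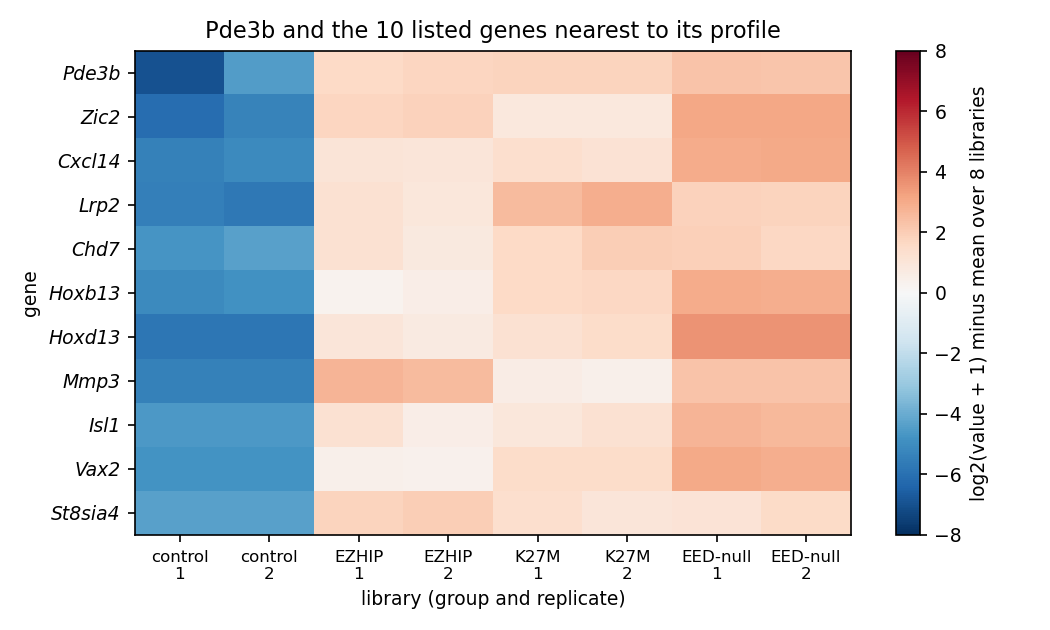
Log2(value + 1) minus the gene's mean over the 8 libraries, for *Pde3b* and the 10 nearest genes (rows) in each library (columns). Every gene is below its mean in both control libraries, which follows from the choice of the 10 genes by likeness to *Pde3b*. The pattern among the other lines varies from gene to gene.

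RefSeq promoter sequences in build GRCm38.p6 were matched for 6 of these 10 genes, and none was matched for *Pde3b*, *Zic2*, *Chd7*, *Hoxb13* or *Vax2*. Because these genes had similar profiles, 3 of the sequences are printed, those with the most and the fewest CG dinucleotides and that of the nearest matched gene. Each is the 250 bases before the annotated start, on the strand of the gene, with every CG in capitals. The motif CG reads the same on both strands, and 92.1% of the 32851 promoters in the table held at least 1 in this window. The sequences lie at chr13:116309689-116309938 on the minus strand for *Isl1*, chr13:56296552-56296801 on the minus strand for *Cxcl14* and chr9:7445572-7445821 on the plus strand for *Mmp3*.

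Isl1: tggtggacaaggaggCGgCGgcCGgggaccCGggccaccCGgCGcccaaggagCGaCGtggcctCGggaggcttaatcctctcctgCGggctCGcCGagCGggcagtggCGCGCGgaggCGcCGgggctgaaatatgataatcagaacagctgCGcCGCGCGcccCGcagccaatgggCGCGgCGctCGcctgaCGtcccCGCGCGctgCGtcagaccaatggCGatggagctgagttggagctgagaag
Cxcl14: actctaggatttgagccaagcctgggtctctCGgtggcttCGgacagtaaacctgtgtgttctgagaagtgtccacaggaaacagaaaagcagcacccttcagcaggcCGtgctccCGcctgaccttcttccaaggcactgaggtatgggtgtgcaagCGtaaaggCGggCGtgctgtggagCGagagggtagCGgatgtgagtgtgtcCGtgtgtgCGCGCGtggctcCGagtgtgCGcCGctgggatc
Mmp3: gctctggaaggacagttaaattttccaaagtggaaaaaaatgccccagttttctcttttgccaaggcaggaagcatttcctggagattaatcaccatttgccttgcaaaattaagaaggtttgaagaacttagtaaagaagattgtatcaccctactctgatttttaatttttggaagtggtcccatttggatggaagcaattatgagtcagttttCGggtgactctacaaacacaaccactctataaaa

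*Isl1* had 33 CG, a number reached by 4.03% of all promoters in the table. *Cxcl14* had 16, reached by 25.4%, and *Mmp3* had 1, reached by 92.1%. The median over all promoters was 6, and 5 of the 6 matched genes had more, *Mmp3* being the exception. Whether this share differs from that of other genes was not tested.

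The other phosphodiesterase genes were tested with limma on log2(value + 1) in 1 fit of the 8 libraries, p-values were adjusted by Benjamini-Hochberg over 875 genes, and a gene was called at an adjusted p under 0.05 and at least 2-fold. With 2 libraries a side, exact permutation p-values go no lower than 0.333, and limma borrows the spread from other genes to make its calls. Of 24 phosphodiesterase genes, 6 were listed, *Pde3b* among them. Of the other 5, all were called higher in EZHIP than in control cells, against 99.1% of the 875 genes called, and nothing is read from this count because the table was selected on that contrast. K27M cells had 4 called higher than control and none lower, where 61.4% of all genes were called. The EED-null clone had 3 called higher and 1 lower, where 65.0% of all genes were called. With 80.0% of 5 genes called in each, nothing particular to the list is read from these counts.

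*Pde1a*, which encodes a calmodulin-stimulated phosphodiesterase, had 1.03 and 0.738 in control libraries, 28.4 and 22.8 with EZHIP, 15.8 and 14 with K27M and 2.77 and 0.969 in the EED-null clone. It was high in EZHIP and K27M cells and near the limit of detection in control and EED-null cells, which held 2 and 3 reads in all. By pooled reads it was 17.3 times as high in K27M as in control cells (exact 95% interval 4.42 to 149, which covers counting error only), and limma gave an adjusted p of 0.000161. EED-null cells were lower than K27M cells by a log2 difference of -2.54 (adjusted p = 0.000482, limma). Against control, limma called the EED-null clone only without EED-null replicate 2 (1.01).

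*Pde1c*, of the same calmodulin-stimulated family, had 5.13 and 5.9 in control libraries, 65.1 and 47.9 with EZHIP, 48.2 and 36.7 with K27M and 15.2 and 24.2 in the EED-null clone. All 3 lines lay above control without overlap, with EED-null cells the lowest of them. The log2 difference from control was 2.73 in K27M cells (SE 0.27, adjusted p = 0.000148, limma) and 1.64 in EED-null cells (SE 0.27, adjusted p = 0.00147, limma).

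*Pde2a*, which encodes a phosphodiesterase stimulated by cyclic GMP, had 2.05 and 8.86 in control libraries, 29.6 and 16 with EZHIP, 25 and 39.3 with K27M and 29.1 and 13.6 in the EED-null clone. The 3 lines overlapped one another and lay above both control libraries, but replicates differed strongly. The log2 difference was 2.56 in K27M cells (SE 0.66, adjusted p = 0.0115, limma) and 1.93 in EED-null cells (SE 0.66, adjusted p = 0.0324, limma). The EED-null call was lost without control replicate 1 (1.09), without EED-null replicate 1 (1.41) and without either K27M library (1.93). It was also lost with only these groups in the fit (1.93) and with rescaled libraries (1.60). Without control replicate 2 the EED-null difference was 2.78. The K27M call was lost without K27M replicate 2 (2.25), and its size moved to 1.72 without control replicate 1 and to 3.41 without control replicate 2.

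*Pde8b*, which encodes a cyclic AMP-specific enzyme, had 87.3 and 76.8 in control libraries, 178 and 195 with EZHIP, 115 and 106 with K27M and 30.5 and 32.9 in the EED-null clone. It was highest in EZHIP cells and lowest in EED-null cells, the reverse of *Pde3b* in that line. EED-null cells had a log2 difference of -1.34 from control (SE 0.12, adjusted p = 8.70e-05, limma). In K27M cells the difference of 0.43 was under 2-fold, and it was -0.03 with rescaled libraries.

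*Pde10a*, which encodes a dual-specificity enzyme known from striatal neurons, had 10.3 and 6.64 in control libraries, 101 and 122 with EZHIP, 21.3 and 19.2 with K27M and 154 and 119 in the EED-null clone. It was high in EZHIP and EED-null cells, which overlapped, and K27M cells lay between these and control. The log2 difference from control was 3.88 in EED-null cells (SE 0.23, adjusted p = 1.61e-05, limma) and 1.20 in K27M cells (SE 0.23, adjusted p = 0.00335, limma). The K27M call was lost without control replicate 2 (0.92), with a pseudocount of 5 (0.92) and with rescaled libraries (0.77). EED-null exceeded K27M cells by 2.68 (adjusted p = 0.000103, limma).

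**Figure D4:**
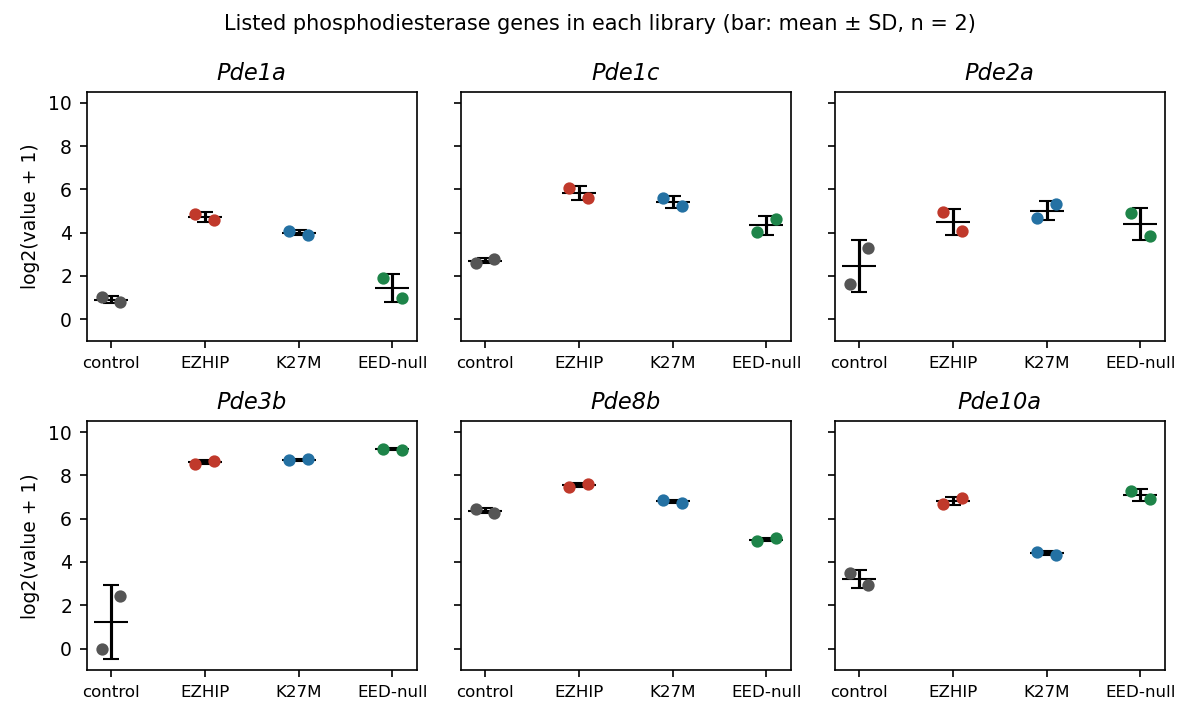
The 6 listed phosphodiesterase genes in each library, as log2(value + 1) by group, with points for libraries and bars for the mean ± SD (n = 2). *Pde3b* lies far above control in all 3 lines, *Pde10a* mainly in EZHIP and EED-null cells, and *Pde8b* lies below control in EED-null cells. Values are unscaled for length and are not compared between panels.

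Between lines, 1 of the 5 genes was called in K27M against EZHIP cells, where 58.7% of all genes were called. In EED-null against EZHIP cells 3 were called, where 44.9% of all genes were, and in EED-null against K27M cells 4 were, where 54.4% of all genes were.

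Per kb of transcript, *Pde3b* made up 1.47% of the summed level of the 6 listed phosphodiesterases in control cells, with 0 and 2.98% in the libraries. The share was 43.8% in EZHIP cells (42.7% and 44.8%), 59% in K27M cells (58.3% and 59.6%) and 73.1% in EED-null cells (71.5% and 75%). In control cells *Pde8b* was the most abundant of the 6 with 19.4 per kb, and in each other line it was *Pde3b*. The sum covers only listed genes, which were selected on EZHIP against control. The other 18 phosphodiesterases of the list were not among them, so their levels are unknown. *Pde3b* was chosen by these values, so the rise of its share is a description and no independent result.

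Further lists held genes of cyclic nucleotide synthesis, effectors and Gs-coupled receptors. With the phosphodiesterases these lists held 152 genes, of which *Pde3b* and 13 others were listed. Of the 13, 9 were called between K27M and control cells (6 higher and 3 lower), as were 10 between the EED-null clone and control (6 higher and 4 lower). The shares of 69.2% and 76.9% stand beside 61.4% and 65.0% over all genes. The median log2 difference of the 13 was 1.09 for K27M and 0.54 for EED-null cells, beside 0.58 and 0.40 over all genes. Rescaling lowered the median of all genes by 0.43 in K27M and 0.39 in EED-null cells, and moved the calls in K27M cells from 362 higher and 175 lower to 304 higher and 243 lower.

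Of 34 synthesis genes, 3 were listed. *Gucy1a3*, which encodes the alpha 1 subunit of soluble guanylyl cyclase, had 8.21 and 13.3 in control libraries, 37.9 and 21.7 with EZHIP, 427 and 434 with K27M and 116 and 95.9 in the EED-null clone. *Gucy1a2*, for the alpha 2 subunit, had 429 and 481 in control libraries, 137 and 146 with EZHIP, 47.3 and 35.8 with K27M and 98.4 and 129 in the EED-null clone. The subunits moved in opposite directions, with K27M cells at the extreme of both. *Gucy1a3* was higher than control by 5.23 in K27M cells (SE 0.31, adjusted p = 1.66e-05, limma) and by 3.22 in EED-null cells (SE 0.31, adjusted p = 0.000130, limma). *Gucy1a2* differed by -3.43 in K27M cells (SE 0.19, adjusted p = 1.25e-05, limma) and by -2.00 in EED-null cells (SE 0.19, adjusted p = 0.000113, limma). *Npr3*, the natriuretic peptide clearance receptor, which has no cyclase domain, had log2 differences of -1.72 (adjusted p = 2.11e-05) and -2.62 (adjusted p = 3.85e-06, limma).

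Of 48 effector genes, 2 were listed. *Prkg2*, which encodes a cyclic GMP-dependent protein kinase, had 86.2 and 84.1 in control libraries, 211 and 246 with EZHIP, 213 and 203 with K27M and 190 and 209 in the EED-null clone. As with *Pde3b*, all 3 lines lay above control, at a much smaller difference of 1.28 in K27M (SE 0.12, adjusted p = 0.000115, limma) and 1.22 in EED-null cells (SE 0.12, adjusted p = 0.000130, limma). Both fell under 2-fold with rescaled libraries, at 0.82 and 0.83. *Akap9*, a scaffold for protein kinase A, differed from control by 0.53 in K27M and 0.30 in EED-null cells, under 2-fold.

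Of 46 receptor genes, 3 were listed. *Ptgir*, the prostacyclin receptor, had 46.2 and 50.2 in control libraries, 7.1 and 7.98 with EZHIP, 14.8 and 4.37 with K27M and 0 and 4.85 in the EED-null clone. It was lower in every line, by -2.41 in K27M cells (SE 0.87, adjusted p = 0.0415, limma) and -4.35 in EED-null cells (SE 0.87, adjusted p = 0.00373, limma), whose libraries held 0 and 5 reads. The EED-null difference was -3.07 without EED-null replicate 1 and -5.62 without EED-null replicate 2, and was called in both. The K27M difference was -3.19 without K27M replicate 1. The K27M call was lost without K27M replicate 2 (-1.63), without control replicate 1 (-2.47) or 2 (-2.36), without either EZHIP library (-2.41) and with a pseudocount of 0.1 (-2.56). *Ramp2* and *Ramp3* encode proteins that set the ligand preference of the calcitonin receptor-like receptor. *Ramp3* had a difference of 2.33 in EED-null cells (SE 0.51, adjusted p = 0.00541, limma), which was 3.10 without control replicate 1 and 1.55 without control replicate 2. Its 1.09 in K27M cells did not pass the test (adjusted p = 0.0905, limma). That difference was 1.87 without control replicate 1, where it passed, and 0.31 without control replicate 2. *Ramp2* passed in neither, at -1.08 in K27M cells (adjusted p = 0.0860) and 0.25 in EED-null cells (adjusted p = 0.646, limma). The first passed without either EZHIP library (-1.08), with only these groups in the fit (-1.08) and with rescaled libraries (-1.52).

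**Figure D5:**
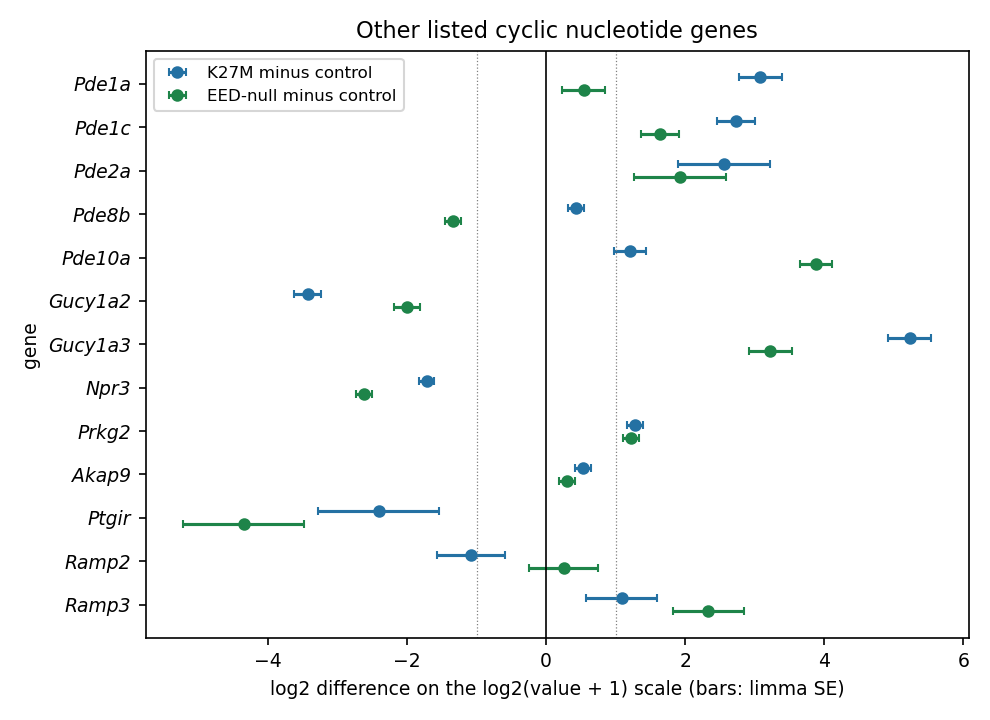
Log2 differences from control of the 13 other listed cyclic nucleotide genes in K27M (blue) and EED-null cells (green), with bars for the limma SE and dotted lines at 2-fold. The genes lie on both sides of 0, from -3.43 for *Gucy1a2* to 5.23 for *Gucy1a3* in K27M cells.

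Of 39 genes of insulin and PI3K signalling, 5 were listed, and 1 was called in K27M and 3 in EED-null cells against control, beside 61.4% and 65.0% over all genes. None encodes the insulin receptor, a PI3K subunit or AKT. *Igfbp2*, which encodes a binding protein for insulin-like growth factors, had 356 and 342 in control libraries, 5184 and 5225 with EZHIP, 588 and 594 with K27M and 3891 and 4088 in the EED-null clone. It was high in EZHIP and EED-null cells, by 3.51 in the latter (SE 0.09, adjusted p = 7.67e-07, limma), and the 0.76 in K27M cells was under 2-fold. *Igfbp5*, of the same family, was lower by -1.93 in K27M (adjusted p = 1.45e-05) and -3.47 in EED-null cells (adjusted p = 1.64e-06, limma). *Igf1*, a growth factor, was lower in EED-null cells by -1.18 (adjusted p = 7.92e-05, limma), with -0.16 in K27M cells. *Igf2*, a related growth factor, differed by -0.56 in K27M and -0.47 in EED-null cells, and *Sh2b2*, an adaptor of the insulin receptor, by 0.53 and 0.65, all under 2-fold. With rescaled libraries *Igf2* in K27M cells was called at -1.01.

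Of 23 genes of adipocyte lipolysis, *Cav1* was the only one listed. It encodes the caveolar coat protein caveolin-1, and it differed from control by 0.18 in both K27M and EED-null cells, which did not pass the test and changed sign with rescaled libraries (-0.28 and -0.22). None of 7 adipocyte markers was listed. Since only genes selected on EZHIP against control were listed, this does not show whether the markers were expressed.

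No protein-coding gene within 1 Mb of *Pde3b* was listed, out of 13 annotated there, among them *Cyp2r1*, 10914 bases after its end. Only genes selected on EZHIP against control were listed, so the levels of these 13 in any line are unknown. The share listed of all annotated genes was not computed, and nothing particular to this region is read from the count. Of the listed genes with a single locus, 45 lay on chromosome 7. The nearest before *Pde3b* were *Mical2* at 2.06 Mb and *Dkk3* at 2.26 Mb, and the nearest after it were *Xylt1* at 2.84 Mb and *Bola2* at 12.2 Mb.

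*Xylt1*, which encodes an enzyme that starts proteoglycan chains, had 7.19 and 9.6 in control libraries, 52.1 and 50.2 with EZHIP, 1.85 and 2.62 with K27M and 51.3 and 58.1 in the EED-null clone. Unlike *Pde3b*, it was lowest in K27M cells, which held 5 reads in all. EED-null cells were higher than control by 2.58 (adjusted p = 2.92e-05, limma), and K27M cells differed by -1.53 (adjusted p = 0.000329, limma), a call lost with a pseudocount of 5 (-0.88). *Mical2*, an actin-oxidizing enzyme, was higher in K27M cells by 1.91 (adjusted p = 1.77e-05), with 0.07 in EED-null cells (adjusted p = 0.605, limma). *Dkk3*, a secreted protein of the Dickkopf family, was higher in EED-null cells by 1.09 (adjusted p = 0.000254), a call lost with rescaled libraries (0.69), with -0.31 in K27M cells (adjusted p = 0.0590, limma). *Bola2*, an iron-sulfur cluster assembly factor, had 0.75 and 0.70 (adjusted p = 0.0698 and 0.0822, limma) and was called in EED-null cells without EED-null replicate 1 (1.12). Its EED-null libraries lay far apart, at 67.9 and 123, beside 48.2 and 65 in control libraries. The EED-null difference therefore rests on which library is used.

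Of 16 fibroblast markers, 3 were listed, *Col3a1*, *Dcn* and *Fap*, and their presence on the list depended on a difference between EZHIP and control cells. Their summed values were 18112 and 17719 in control libraries, 6934 and 6460 with EZHIP, 5560 and 5876 with K27M and 5805 and 5723 in the EED-null clone. Per kb, *Col3a1*, a fibrillar collagen, was the most abundant of them in control, EZHIP and EED-null cells, and *Dcn*, a small proteoglycan, in K27M cells. The sum was lower in all 3 lines in which *Pde3b* was high, but its genes did not all move one way in K27M cells. *Dcn* had 364 and 380 in control libraries, 129 and 179 with EZHIP, 3192 and 3255 with K27M and 69.3 and 73.6 in the EED-null clone. In K27M cells *Dcn* was called higher than control by 3.11 (adjusted p = 1.10e-05, limma) and *Col3a1* lower by -2.89, while *Fap*, a cell surface protease, had 0.56 and did not pass the test (adjusted p = 0.329, limma). In EED-null cells all 3 were called lower, and the median log2 difference was -2.36, against 0.56 in K27M cells. The shares called of 66.7% and 100% stand beside 61.4% and 65.0% over all genes. Of 8 endothelial markers, *Kdr* was listed, with 9.24 and 9.6 in control libraries, 52.1 and 51.3 with EZHIP, 157 and 222 with K27M and 11.1 and 10.7 in the EED-null clone. Of 6 epithelial markers, *Epcam* and *Krt14* were listed, with sums of 6.16 and 3.69 in control libraries, 59.2 and 36.5 with EZHIP, 109 and 141 with K27M and 43 and 24.4 in the EED-null clone, with *Krt14* at 0 in control cells. Per kb, *Krt14* was the more abundant in EZHIP cells and *Epcam* in the others. Of 6 neural markers, *Sox2* was listed, at 0 in all control and K27M libraries, 166 and 137 in EZHIP, and 245 and 270 in EED-null libraries. Neither *Kdr* nor *Sox2* was high in all 3 lines. The epithelial sum lay above control in all 3, from few reads. In the EED-null libraries it rested on 28 and 21 reads of *Epcam* and 3 and 4.18 of *Krt14*. None of the 7 macrophage, 6 muscle or 4 hepatocyte markers was listed, so their levels are unknown. The part of these genes in the level of *Pde3b* was not tested.

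Of 34 polycomb genes, *Phf19* and *Pcgf5* were listed. Per kb, *Phf19* was the more abundant in control cells and *Pcgf5* in each other line. *Phf19*, a PRC2 accessory subunit, had 311 and 275 in control libraries, 112 and 123 with EZHIP, 339 and 327 with K27M and 229 and 204 in the EED-null clone. *Pcgf5*, a subunit of a PRC1 variant, had 82.1 and 65.7 in control libraries, 205 and 210 with EZHIP, 322 and 309 with K27M and 129 and 117 in the EED-null clone. In K27M against control cells 1 of them was called (50.0%), *Pcgf5*, where 61.4% of all genes were, and in EED-null against control cells neither was, where 65.0% were.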

How the data were processed

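RNA depleted of ribosomal RNA was sequenced from MEFs in 8 libraries, 2 per group. Per the labels, the authors estimated reads per gene with RSEM 1.2.4 on mm9. The deposited signal is these estimates divided by a size factor per library, for genes that EBSeq had called in EZHIP against control cells. Foreign RNA, from FFT cells, was spiked into the samples, and whether it entered the size factors is not stated. From the step of 1 read in each library, between 71.8% and 82.3% of values were whole reads within 0.005 reads, so no count model was fitted.

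Groups and replicates followed the labels. The limma 3.58.1 fit (R 4.3.3) used log2(value + 1) and group means, and its script was tested on simulated data. Python 3.11.15 gave the other values (scipy 1.17.1, numpy 2.4.6, pandas 2.3.3) and the figures (matplotlib 3.10.9). Replicates differed by more than sampling noise, with a chi-square per gene between 1.57 and 3.65.

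Named genes were *Pde3b*, the 10 listed genes nearest to its profile, the listed members of 6 lists (phosphodiesterases, synthesis, effectors, receptors, insulin signalling and lipolysis), the 2 nearest listed genes on each side, and the most abundant polycomb and cell type markers. The members and lists were chosen with earlier results of these data known. A withheld gene was left out of the lists and their counts and is not reported here. Alternatives were no fold minimum, an expression trend, fits of 2 groups alone, a replicate block, libraries rescaled to a common median ratio, omission of each library, a minimum mean of 5 and pseudocounts of 0.1 and 5.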

Additional observations from a re-analysis of the deposited data

Results flagged for a closer look

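A called difference between lines was found by limma for 18 of the 23 named genes of the lists and neighbours (78.3%) and for 685 of the 874 genes other than *Pde3b* (78.4%), so nothing particular to the named genes is read from it. The largest such log2 difference of each is given.

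Among the phosphodiesterases, EED-null minus EZHIP was -3.28 for *Pde1a*, where EED-null cells held 3 reads in all and EZHIP was 14.9 times as high by pooled reads (exact 95% interval 4.79 to 75.2, which covers counting error only). EED-null minus EZHIP was -1.49 for *Pde1c* and -2.52 for *Pde8b*. EED-null minus K27M was 2.68 for *Pde10a*.

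Among synthesis and effector genes, K27M minus EZHIP was -1.76 for *Gucy1a2* and 3.86 for *Gucy1a3*. EED-null minus EZHIP was -1.23 for *Npr3* and -1.10 for *Akap9*. Among receptor genes, EED-null minus EZHIP was 1.86 for *Ramp2* (2.64 without EZHIP replicate 1 and 1.07 without EZHIP replicate 2) and K27M minus EZHIP was -2.40 for *Ramp3*.

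For the other lists, K27M minus EZHIP was 1.96 for *Igf1*, -1.87 for *Igf2*, -3.14 for *Igfbp2* and -1.28 for *Cav1*. EED-null minus K27M was -1.54 for *Igfbp5*. On chromosome 7, EED-null minus K27M was -1.85 for *Mical2* and 4.11 for *Xylt1*, where K27M cells held 5 reads in all, and EED-null minus EZHIP was 2.62 for *Dkk3*.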

How the results depend on the processing

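Alternatives run for *Pde3b* were the pseudocounts, omission of each library of the groups compared, rescaled libraries and the ratio of group means without a pseudocount. Under each of them, its differences from control kept their sign. With a pseudocount of 0.1 they were 9.18 with EZHIP, 9.29 with K27M and 9.77 for EED-null cells, and with a pseudocount of 5 they were 5.84, 5.96 and 6.44, since the control values are near 0. With each library left out they ranged from 6.17 to 8.61, from 6.28 to 8.72 and from 6.76 to 9.21. With rescaled libraries, K27M minus EZHIP reversed to -0.03 and EED-null minus K27M was 0.55; the cause was not tested. Of the 10 nearest genes, 7 were shared with a pseudocount of 5, 3 with 0.1 and 2 with Pearson's r. Without a fold minimum, 601 genes were called in EED-null against EZHIP cells. The other counts of called genes stayed within 1.5 times.

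Single genes reversed as follows, and the cause was not tested. With rescaled libraries, the difference from control was -0.03 for *Pde8b* and -0.28 for *Cav1* in K27M cells, and -0.10 for *Akap9*, -0.13 for *Ramp2*, -0.22 for *Cav1* and -0.33 for *Mical2* in EED-null cells. K27M minus EZHIP was -0.01 for *Ptgir*, and EED-null minus K27M was 0.00 for *Prkg2* and 0.01 for *Bola2*.

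Leave-one-out ranges that crossed 0 were 0.00 to 0.14 for *Mical2* in EED-null minus control, -0.67 to 0.89 for *Ptgir* in K27M minus EZHIP, -0.26 to 1.31 for *Ramp2* in K27M minus EZHIP, -0.64 to 0.40 for *Pde2a* in EED-null minus EZHIP, -0.64 to 0.01 for *Sh2b2* in EED-null minus EZHIP, -0.76 to 0.09 for *Bola2* in EED-null minus EZHIP, -0.13 to 0.01 for *Prkg2* in EED-null minus K27M, -0.08 to 0.08 for *Cav1* in EED-null minus K27M and -0.47 to 0.38 for *Bola2* in EED-null minus K27M.

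The groups share replicate numbers, but the correlation of replicate deviations between groups ran from -0.089 to 0.105, and 1 of 6 was over 0.1. No clear pairing of the samples by number was seen, but correlations this weak cannot exclude one. With the replicate block, 867, 536, 566, 513, 389 and 475 genes were called in the 6 comparisons, and 8 and 9 cyclic nucleotide genes in K27M and EED-null cells. Without the block there were 867, 537, 569, 514, 393 and 476, and 9 and 10.

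The alternatives were tallied for 24 genes, *Pde3b* and the 23 named genes of the lists and neighbours. The genes nearest in profile and the polycomb and cell type markers were not covered. Of 1842 values, 1747 kept their sign and side of the threshold, 36 lost the call, 36 gained it and 21 changed sign. The 2 ranks of *Pde3b* among near-silent genes moved. Changes in the size of the *Pde3b* differences, given above, were not counted as moved. The planned count model was not run because whole reads were not recovered for nearly all values. Where a replicate was left out, the lone sample was assumed to vary like the other groups. The 6 control reads limit every ratio of *Pde3b* to control.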
